A study of Rattus norvegicus with 5 samples.

Results

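The proteasome and the proteins that load peptides onto MHC class I were examined in sorted rat blood leukocytes labelled as myeloid-derived suppressor cells (MDSCs), an immature myeloid population known to dampen T cells. Members were the genes whose single annotated symbol on the array began with Psma to Psmg and a digit or named a class I heavy chain of the RT1 complex (the rat MHC), or was B2m, Tap1, Tap2, Tapbp or Erap1. The rule found 41 genes (42 probes) among 5990 named genes on an array of 26857 probes, and the brightest probe stood for a gene with several. All samples came from LEW.1A rats, haplotype RT1a, at day 100 after kidney transplantation. The tolerant group (3 arrays) had received a kidney of LEW.1W rats, haplotype RT1u, mismatched at MHC class I and II and taken at 8 to 12 weeks of age, and had been treated with the anti-CD28 antibody JJ319. The allografts were life-sustaining, with both native kidneys removed at day 7. The syngeneic group (2 arrays) carried LEW.1A kidneys, and the labels name no antibody treatment, donor age or nephrectomy day for it. Graft mismatch and antibody treatment thus differ together between the groups and cannot be told apart. The recipients' ages and the number of animals behind each array are not stated in the labels, and the design text counts 3 recipients in each group. Both groups were prepared alike: erythrocytes were lysed, class II-positive and CD3-positive cells were depleted, and what remained was sorted for CD80 and CD86. Nothing ties an array to 1 animal, so p-values reflect only how far these samples scatter, and that scatter may be technical.

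The proteasome is a barrel of stacked rings that cuts proteins tagged with ubiquitin. Its 20S core holds outer rings of alpha subunits, which gate the entrance, and inner rings of beta subunits, which carry the cutting sites, and the 19S cap recognises, unfolds and feeds in the substrate. Interferon gamma and inflammatory signals replace the catalytic beta subunits by inducible ones (Psmb8, Psmb9 and Psmb10), which blood leukocytes also make at rest, and this immunoproteasome favours peptides that fit class I. Peptides are pumped into the endoplasmic reticulum by the TAP transporter (Tap1 with Tap2), trimmed by the aminopeptidase Erap1 and bound by a class I heavy chain paired with beta-2 microglobulin (B2m), and the complex shows them to CD8 T cells.

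The promoters of 35 of the 41 members were matched in RefSeq's table for the rat assembly GRCr8, each from 250 bases before to 50 after the gene start. Of these windows 6 are printed, to set heavy chains and Tap1, whose signals dropped on 1 array, beside Psmb9 and B2m, whose signals did not. Tap1 and Psmb9 lie head to head and their windows, chr20:4668494-4668793 (minus strand) and chr20:4668750-4669049 (plus strand), overlap by 44 bases. RT1-A3 (chr20:4849201-4849500, plus strand), RT1-CE15 (chr20:3283721-3284020, minus strand) and RT1-CE16 (chr20:3265394-3265693, minus strand) are heavy chains whose signals moved together, and B2m (chr3:129549080-129549379, plus strand) is their partner chain. Capitals mark matches, on either strand, to TTCNNNGAA (the gamma-activated sequence), CCAAT (the CCAAT box) or TGACNNNGC (the core of the antioxidant response element), and the Tap1 window, shown for its overlap with Psmb9, holds none of them. No match in these windows overlaps another.
Tap1: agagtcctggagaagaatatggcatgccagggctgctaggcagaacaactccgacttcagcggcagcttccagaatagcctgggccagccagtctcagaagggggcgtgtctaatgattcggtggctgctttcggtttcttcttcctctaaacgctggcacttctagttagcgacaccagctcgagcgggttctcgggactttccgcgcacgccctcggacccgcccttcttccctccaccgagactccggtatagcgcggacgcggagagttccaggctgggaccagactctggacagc
Psmb9: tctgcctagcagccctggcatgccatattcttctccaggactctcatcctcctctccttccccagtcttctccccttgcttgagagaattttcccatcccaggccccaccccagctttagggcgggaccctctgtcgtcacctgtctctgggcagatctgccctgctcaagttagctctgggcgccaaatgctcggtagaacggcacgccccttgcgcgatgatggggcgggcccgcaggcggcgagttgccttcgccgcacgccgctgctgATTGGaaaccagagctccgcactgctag
RT1-A3: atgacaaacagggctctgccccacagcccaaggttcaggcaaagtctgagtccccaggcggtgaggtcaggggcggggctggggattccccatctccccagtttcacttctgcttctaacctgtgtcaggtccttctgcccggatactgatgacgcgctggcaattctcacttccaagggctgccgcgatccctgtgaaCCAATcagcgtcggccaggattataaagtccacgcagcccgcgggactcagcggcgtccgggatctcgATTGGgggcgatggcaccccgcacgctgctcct
RT1-CE15: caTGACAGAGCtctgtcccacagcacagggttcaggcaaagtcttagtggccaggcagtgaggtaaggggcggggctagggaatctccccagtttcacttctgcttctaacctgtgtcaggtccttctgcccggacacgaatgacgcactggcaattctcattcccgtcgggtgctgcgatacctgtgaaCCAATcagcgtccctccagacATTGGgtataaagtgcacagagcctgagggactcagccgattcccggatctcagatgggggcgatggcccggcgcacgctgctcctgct
RT1-CE16: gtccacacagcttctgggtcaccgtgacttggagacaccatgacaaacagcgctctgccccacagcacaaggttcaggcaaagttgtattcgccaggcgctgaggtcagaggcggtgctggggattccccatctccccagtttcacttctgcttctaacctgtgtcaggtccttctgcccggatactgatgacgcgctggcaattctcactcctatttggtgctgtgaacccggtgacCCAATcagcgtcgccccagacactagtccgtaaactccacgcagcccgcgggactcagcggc
B2m: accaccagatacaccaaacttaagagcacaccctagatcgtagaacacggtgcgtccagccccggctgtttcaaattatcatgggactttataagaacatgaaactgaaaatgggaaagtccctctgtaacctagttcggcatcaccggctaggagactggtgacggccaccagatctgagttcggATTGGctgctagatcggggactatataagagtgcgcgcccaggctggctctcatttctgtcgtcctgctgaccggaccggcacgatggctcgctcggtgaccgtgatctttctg

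The CCAAT box occurred in 25 members (71.4%, against 37.5% of all promoters), in 17 of 24 proteasome and 7 of 10 class I promoters. Of the windows shown it was in all 3 heavy chains, Psmb9 and B2m, but not in Tap1. The antioxidant response element core, bound by factors that drive proteasome genes under stress, occurred in 6 members (17.1%, against 12.1%). Of those, 5 encode proteasome proteins, as do 24 of the 35 members with a promoter. The gamma-activated sequence occurred in Psmb8 and RT1-M3-1 (5.71%, against 8.87%). Only these motifs were searched. Others, among them the interferon-stimulated response element, were not, so a window without a match may still hold them. RT1-A3 had the same base as RT1-CE15 in 80.3% of alignment columns and as RT1-CE16 in 65.9%. RT1-CE15 shared 60.5% of columns with RT1-CE16. Columns with a gap count as unlike, so windows that start at shifted points share less. The plus-strand CCAAT lay at -12 from the gene start in RT1-CE16, -51 in RT1-A3 and -60 in RT1-CE15. RT1-N3 shared 46.1% with RT1-A3, about as much as B2m did (47.1%). RT1-CE5, whose window is not printed, shared 83.2% with RT1-A3. These matches describe letters in the reference genome, a strain other than LEW.1A, and not sites in use.

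Array signals were quantile normalized and are given on the log2 scale. Each array's background level, between 10.71 and 11.20, was the 95th percentile of its 464 probes for olfactory receptors. On this scale 31 of the 41 members were above background on all 5 arrays, and 38 were bright enough to be tested with limma. Syngeneic array 2 stood apart over all probes: its correlation with the other arrays was 0.84 to 0.86, against 0.89 to 0.92 among those 4. Over the 38 tested members the same correlations were 0.76 to 0.87 and 0.96 to 0.98. Markers of other blood cells also moved with the groups, and their part in the results below was not tested. All 14 tested NK cell markers were lower in tolerant cells (3 of them called), with a log2 summed signal over the 16 on the array, Nkg7 the brightest, of 13.55 to 14.08 in tolerant and 17.86 to 17.98 in syngeneic arrays. Of 12 tested T cell markers 11 were lower (1 called; brightest Cd8b), with sums of 14.03 to 14.59 and 17.16 to 17.27. The 8 neutrophil markers tested were lower (brightest S100a8), with sums of 15.84 to 17.60 and 19.75 to 21.18. Of 4 tested erythroid markers 3 were lower (brightest Hbb-b1), with sums of 11.53 to 12.48 and 15.59 to 21.16. B cell markers (2 of 2 higher, brightest Cd79b) had sums of 14.78 to 17.52 in tolerant and 12.52 to 14.03 in syngeneic arrays, and class II genes (9 of 9 higher, brightest Cd74) 19.99 to 21.07 and 18.84 to 20.07, although cells with class II protein had been depleted. Monocyte and macrophage markers, the lineage nearest to the label, were 6 of 7 higher (brightest Lyz2), with sums of 20.13 to 20.94 and 19.47 to 19.82. Of 3 platelet markers 1 was tested lower (Nrgn, the brightest) and 1 higher, with sums of 10.48 to 10.78 and 11.01 to 13.42. At background on all arrays were Ncr1, Ncr3, Cd6, Zap70, Lcn2, Alas2, Epor, Gata1, RT1-Db1 and Gp5.

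None of the 38 tested members was called different between tolerant and syngeneic cells. With limma and Benjamini-Hochberg adjustment over 13428 probes, 0 members passed an adjusted p of 0.05, where 0.0447% of all tested probes did (6, all lower in tolerant cells). At an unadjusted p under 0.05 the members again gave 0, against 5.37% of all tested probes, and the lowest member p was 0.099, for RT1-M3-1. Of the members 22 were lower and 16 higher in tolerant cells, and their median difference was -0.07 (0.0038 over all tested probes). In 8 members (21.1%) every tolerant value lay below both syngeneic values, against 10.4% of all tested probes, and in 2 (5.26%) every tolerant value lay above, against 9.74%. A failed test does not show equal levels, and the median half-width of the 95% intervals was 0.98 over the members and 1.31 over all tested probes. In bulk samples a different share of cells of a type and different RNA per cell cannot be told apart.

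**Figure D1:**
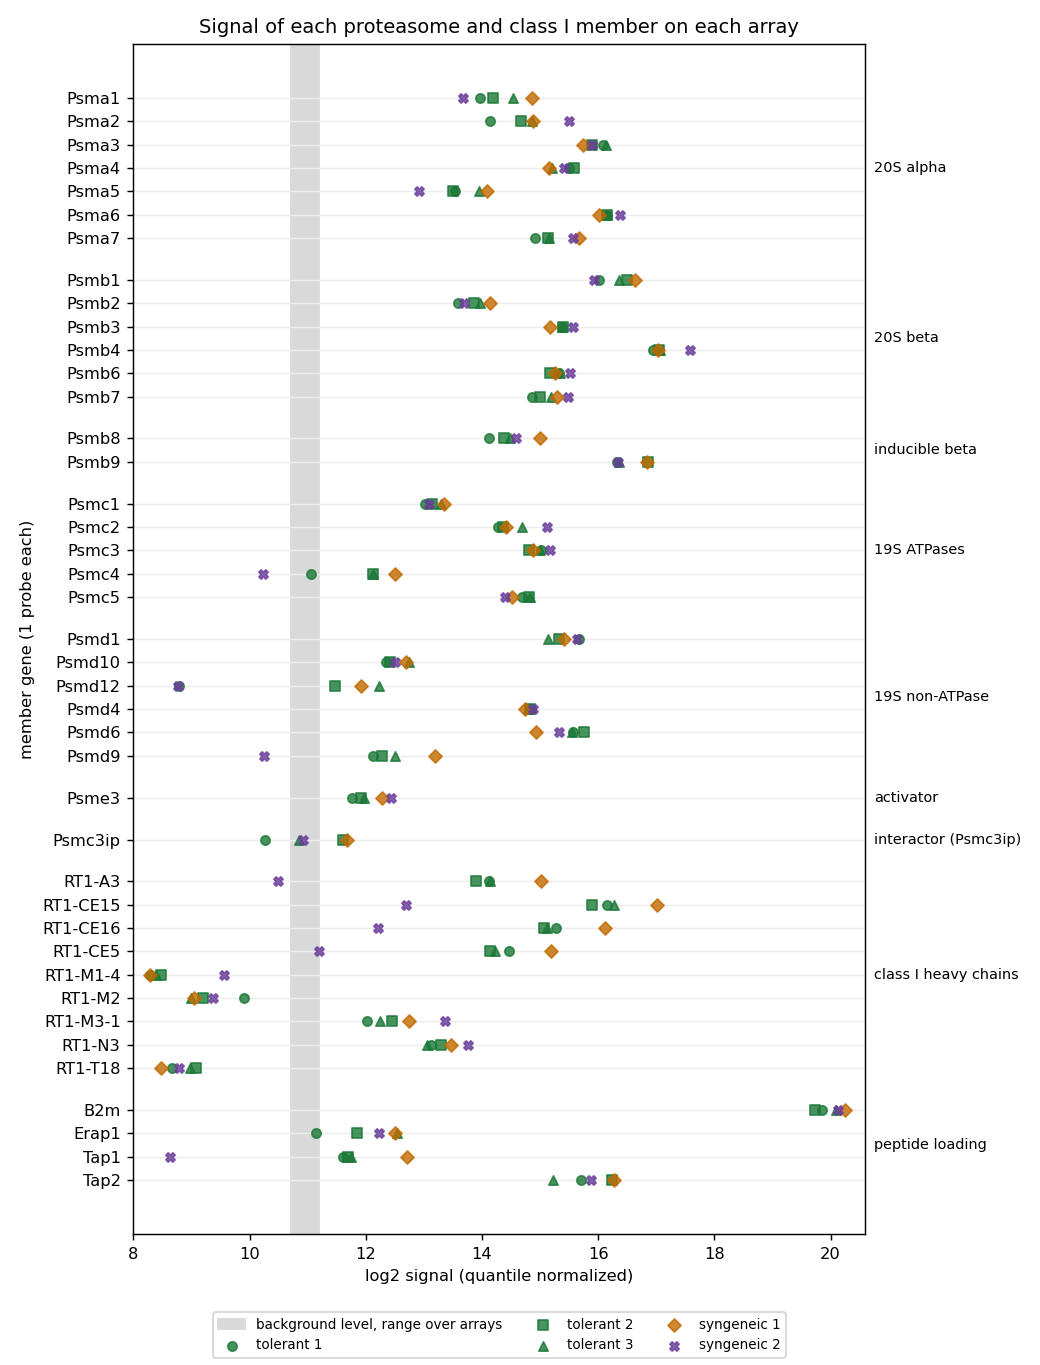
Log2 signal (horizontal axis) of each of the 41 members (rows, grouped by role) on each of the 5 arrays, with the range of the background level over arrays in grey. Most proteasome rows are tight clusters well above background, while 4 class I heavy chains and Tap1 have syngeneic 2 at least 2 log2 units to the left of every other array.

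The alpha ring was well above background on every array of both groups, and no subunit was called. All 7 alpha subunits with a named probe (Psma1 to Psma7) were above background on all 5 arrays, 4 were lower and 3 higher in tolerant cells, and their median difference was -0.04 (-0.32 without syngeneic 2, -0.36 with median scaling in place of quantile normalization and -0.57 without normalization). Psma6 gave 16.16, 16.16 and 16.15 for tolerant 1, 2 and 3, then 16.01 for syngeneic 1 and 16.37 for syngeneic 2. The tolerant values spanned less than the gap between the syngeneic ones, and the groups overlapped (difference -0.04, 95% interval -0.97 to 0.89, adjusted p = 0.992). Psma7 was 14.91, 15.13 and 15.15 in tolerant and 15.67 and 15.57 in syngeneic cells. Here the groups did not overlap, although the difference of -0.56 (SE 0.38) did not pass (limma, adjusted p = 0.907). Psma2 also lay lower on all tolerant arrays, at 14.14, 14.67 and 14.87 against 14.88 and 15.49, and differed by -0.63 (SE 0.45, adjusted p = 0.907). Psma3 and Psma4 differed by 0.22 and 0.15 in the other direction, with groups that overlapped. Psma1 and Psma5 were lowest on syngeneic 2 and highest on syngeneic 1 (13.67 and 14.87 for Psma1), so their differences of -0.04 and 0.16 lay between values of opposite sign for each syngeneic array.

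The constitutive beta subunits behaved alike. Of the 6 measured (Psmb1, Psmb2, Psmb3, Psmb4, Psmb6 and Psmb7) 4 were lower and 2 higher, with a median difference of -0.10, and no probe is named for the catalytic subunit Psmb5. Psmb3, a structural subunit, was 15.37, 15.39 and 15.37 in tolerant and 15.17 and 15.57 in syngeneic cells, a difference of 0.01 (95% interval -0.93 to 0.95). Psmb6, the subunit with caspase-like activity, was 15.33, 15.17 and 15.35 in tolerant and 15.26 and 15.51 in syngeneic cells. Those groups overlapped, with a difference of -0.10 (SE 0.38, adjusted p = 0.979), and a second, dimmer Psmb6 probe gave -0.34 (SE 0.41). Psmb7, which carries the trypsin-like activity, was 14.87, 15.01 and 15.19 against 15.30 and 15.48, lower on every tolerant array by a mean of 0.37 that did not pass (difference -0.37, SE 0.39, adjusted p = 0.912). Psmb4, the brightest of these probes, was 16.95, 17.05 and 17.07 against 17.02 and 17.58 (difference -0.28, SE 0.40, adjusted p = 0.936).

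Both inducible subunits measured were above background on every array of both groups. Psmb8 (LMP7), which takes the place of Psmb5, was 14.12, 14.38 and 14.48 in tolerant and 15.00 and 14.59 in syngeneic cells. All tolerant values were below both syngeneic values, with a difference of -0.47 (SE 0.40, 95% interval -1.44 to 0.50, adjusted p = 0.907). Psmb9 (LMP2), which replaces Psmb6, was 16.33, 16.86 and 16.35 against 16.85 and 16.34, so the groups overlapped (difference -0.08, SE 0.42, adjusted p = 0.986). The log2 signal of Psmb9 minus that of Psmb6 on the same array, which tracks the exchange only as unequal change of 2 probes, averaged 1.23 ± 0.40 (SD, n = 3) among tolerant arrays, close to 1.21 ± 0.53 (SD, n = 2) among syngeneic ones. The difference of 0.02 was smaller than either spread and changed to -0.35 without syngeneic 2 and 0.40 without syngeneic 1. No probe is named for Psmb10, nor for Psme1 and Psme2, the inducible activator subunits. Psme3 (PA28 gamma), the nuclear activator, was 11.77, 11.92 and 11.97 in tolerant and 12.28 and 12.44 in syngeneic cells. It was lower on every tolerant array without passing (difference -0.48, SE 0.38, adjusted p = 0.907).

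In the 19S cap, the ring of ATPases that unfolds substrates had 3 of 5 measured subunits lower and 2 higher, with a median difference of -0.06. Psmc5 was 14.69, 14.81 and 14.83 in tolerant and 14.52 and 14.40 in syngeneic cells, 1 of 2 members whose tolerant values all lay higher (difference 0.31, SE 0.38, adjusted p = 0.922). Psmc3, the brightest ATPase probe, was 15.01, 14.82 and 14.99 against 14.88 and 15.18, with groups that overlapped (difference -0.09, SE 0.38, adjusted p = 0.980). Psmc2 was 14.28, 14.36 and 14.70 against 14.42 and 15.11, and only syngeneic 2 stood higher than the rest (difference -0.32, SE 0.43, adjusted p = 0.932). Psmc1 differed by -0.06. Psmc4 was at background on tolerant 1 (11.06) and syngeneic 2 (10.24) and above it on the other arrays (12.13, 12.13 and 12.51), so its difference of 0.40 (SE 0.77) is partly measured against background, and it was -0.74 without syngeneic 2 and 1.53 without syngeneic 1.

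Among the non-ATPase subunits 2 of 6 were lower and 4 higher, with a median difference of 0.25, or -0.11 without syngeneic 2. Psmd6, part of the lid, was 15.56, 15.76 and 15.55 in tolerant and 14.93 and 15.33 in syngeneic cells. It was the other member with every tolerant value higher, by 0.49 (SE 0.39, adjusted p = 0.907). Psmd4, a ubiquitin receptor of the cap, was the steadiest probe of the set, at 14.85, 14.83 and 14.79 against 14.74 and 14.88 (difference 0.01, 95% interval -0.90 to 0.92). Psmd1, a scaffold of the base, was 15.68, 15.32 and 15.14 against 15.41 and 15.64 and overlapped between groups (difference -0.14, SE 0.40, adjusted p = 0.972). Psmd10 (gankyrin), a chaperone of cap assembly, differed by -0.10. Psmd9, another assembly chaperone, was 12.12, 12.27 and 12.51 in tolerant cells, 13.20 on syngeneic 1 and at background on syngeneic 2 (10.25). Its difference of 0.58 (SE 0.86, adjusted p = 0.938) became -0.90 without syngeneic 2 and 2.05 without syngeneic 1. Psmd12 was at background on tolerant 1 (8.79) and syngeneic 2 (8.76), against 11.47, 12.23 and 11.91 on the others, and its difference of 0.49 (SE 1.30) was -1.08 without syngeneic 2 and 2.07 without syngeneic 1. Psmc3ip, which the rule takes in by its symbol, is a factor of meiotic recombination and no proteasome subunit. It was 10.26, 11.61 and 10.86 in tolerant and 11.68 and 10.91 in syngeneic cells, at background on tolerant 1 and near it elsewhere (difference -0.39, SE 0.55, adjusted p = 0.936).

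The proteasome probes were more even than most of the array. The median SD among tolerant arrays was 0.18 over the 27 proteasome members, 0.48 over all tested probes and 0.26 over the 4459 probes above background on every array. The values on tolerant arrays spanned less than 1 log2 unit in 25 of the 27 (92.6%), against 54.2% of all tested probes and 87.4% of those above background on every array. The median gap between the syngeneic arrays was 0.40 over the proteasome members, 0.51 over probes above background on every array and 0.74 over all tested probes. The share of even probes is therefore nearer to that of bright probes than to that of all probes.

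**Figure D2:**
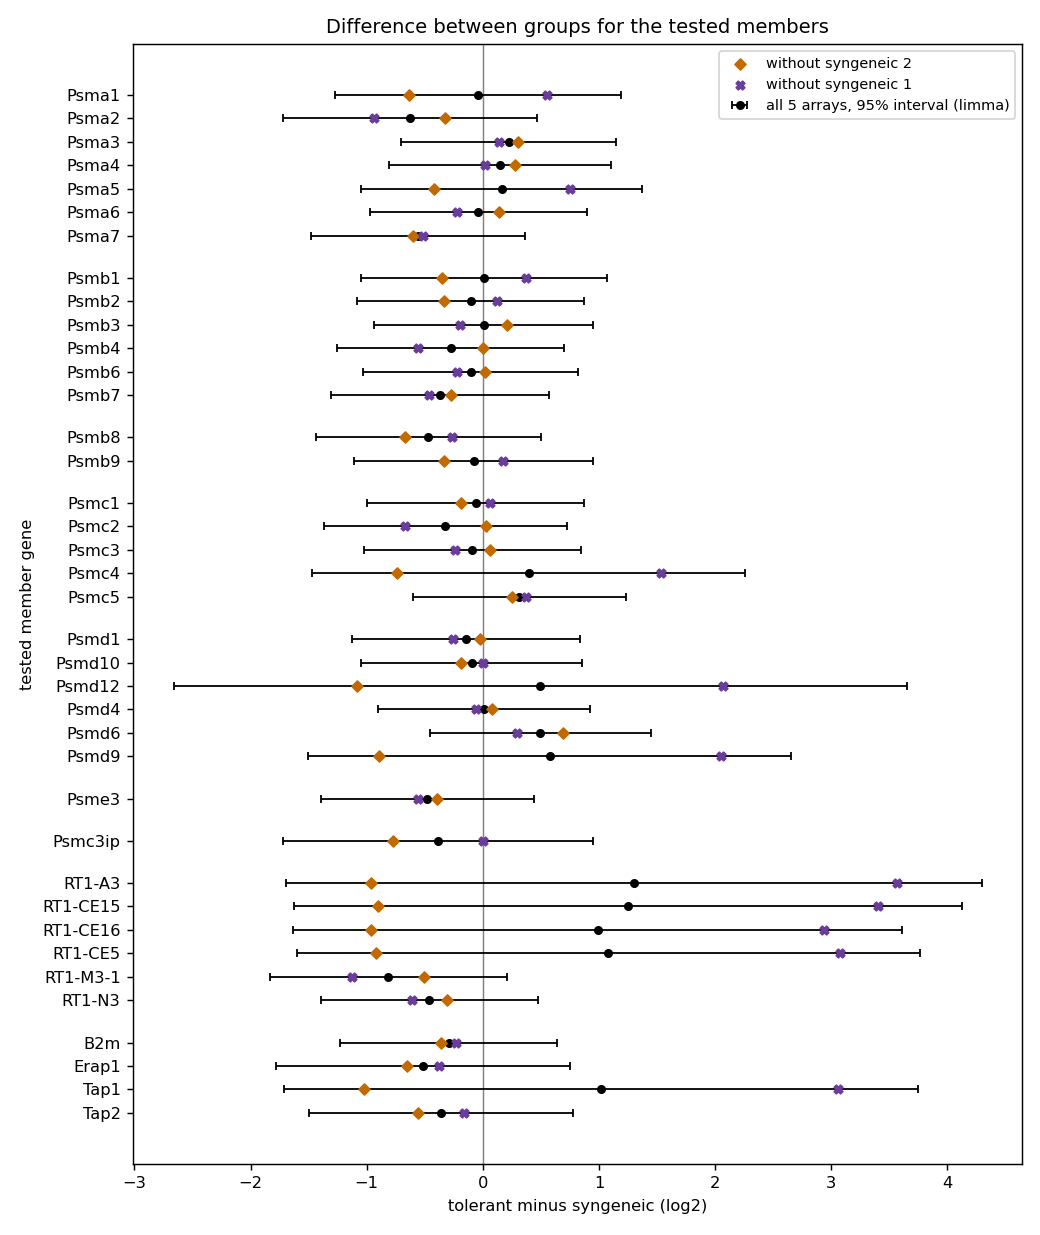
Difference of tolerant minus syngeneic cells on the log2 scale (horizontal axis) for the 38 tested members, with the limma estimate and 95% interval from all 5 arrays and the estimates without either syngeneic array. Every interval includes 0, and the intervals are widest for Psmd12, 4 class I heavy chains and Tap1, where the estimates without syngeneic 1 or 2 lie on opposite sides of 0.

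Class I heavy chains split into sets. RT1-A3, of the classical class I region RT1-A, and RT1-CE5, RT1-CE15 and RT1-CE16, of the RT1-C/E region that holds mostly non-classical genes, were high on syngeneic 1, intermediate on the tolerant arrays and lowest on syngeneic 2. RT1-A3 (probe 21173698) was 14.12, 13.91 and 14.14 in tolerant cells, 15.02 on syngeneic 1 and 10.49, at background, on syngeneic 2. RT1-CE15 (probe 20713719) was 16.15, 15.89 and 16.27, then 17.01 and 12.70. RT1-CE16 (probe 20922518) was 15.28, 15.06 and 15.12, then 16.12 and 12.21, and RT1-CE5 (probe 21944843) was 14.47, 14.14 and 14.22, then 15.19 and 11.20. On syngeneic 1 these 4 signals were 0.90 to 0.96 above the tolerant mean, and on syngeneic 2 they were 2.94 to 3.56 below it. The 3 signals above background on both syngeneic arrays were 19.8-fold (RT1-CE15), 15.0-fold (RT1-CE16) and 15.9-fold (RT1-CE5) higher on syngeneic 1 than on syngeneic 2. The tolerant arrays lay within 0.38 log2 units of each other for each of the 4 probes.

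The group comparison for these chains therefore rested on which syngeneic array was used. With both, RT1-A3 differed by 1.30 (SE 1.23, adjusted p = 0.907), RT1-CE15 by 1.25 (SE 1.18, adjusted p = 0.907), RT1-CE5 by 1.08 (SE 1.10, adjusted p = 0.910) and RT1-CE16 by 0.99 (SE 1.08, adjusted p = 0.914). Without syngeneic 2 the differences were -0.96, -0.90, -0.92 and -0.96, with an adjusted p of 1.00 each in limma, where 0% of all tested probes were called. No member reached an unadjusted p under 0.05 there, against 4.08% of all tested probes. Without syngeneic 1 they were 3.56, 3.41, 3.07 and 2.94, with adjusted p between 0.060 and 0.069, where 0.566% of all tested probes were called. In these fits the lone syngeneic array is assumed to vary like the tolerant ones. The sequences of class I genes are closely related and the probe sequences were not used here, so these probes may bind transcripts of several genes and are not independent readings.

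RT1-M3-1 and RT1-N3 did not share this pattern. RT1-M3-1 is the rat counterpart of H2-M3, which in the mouse presents formylated peptides, and was 12.03, 12.44 and 12.25 in tolerant and 12.74 and 13.37 in syngeneic cells. All tolerant values were lower, with a difference of -0.82 (SE 0.42, 95% interval -1.84 to 0.20, adjusted p = 0.907), and -0.51 without syngeneic 2. RT1-N3, a non-classical chain, was 13.12, 13.29 and 13.05 against 13.46 and 13.76, again lower on every tolerant array (difference -0.46, SE 0.39, adjusted p = 0.907). For both, syngeneic 2 was the highest array. RT1-M1-4, RT1-M2 and RT1-T18 were at background on all 5 arrays, between 8.29 and 9.91, and were below the signal filter, so nothing was measured for them. Over the 6 tested heavy chains 2 were lower and 4 higher, with a median difference of 1.03, which was -0.91 without syngeneic 2 and 3.01 without syngeneic 1.

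**Figure D3:**
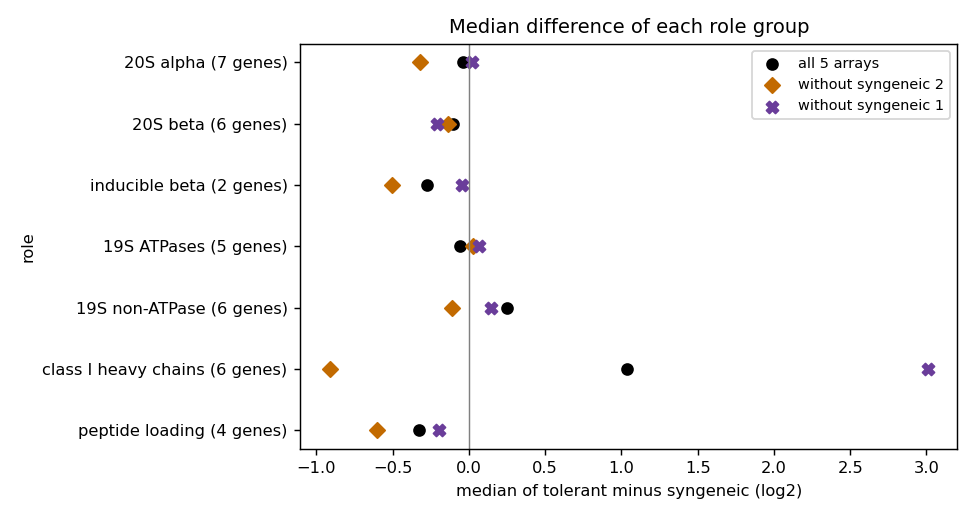
Median difference of tolerant minus syngeneic cells on the log2 scale for each role with more than 1 tested member, from all 5 arrays and without either syngeneic array. The proteasome roles stay between -0.50 and 0.25, while the class I heavy chains move from -0.91 to 3.01.

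B2m, the light chain shared by class I molecules, did not follow the heavy chains. It was 19.85, 19.74 and 20.08 in tolerant and 20.25 and 20.12 in syngeneic cells, near the top of the signal range on all arrays. The tolerant values were lower than both syngeneic ones, with a difference of -0.29 (SE 0.39, 95% interval -1.23 to 0.64, adjusted p = 0.928). On syngeneic 2, where RT1-A3 was 3.56 below the tolerant mean, B2m was 0.23 above it.

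The transporter subunits parted in the same way. Tap1 (probe 21235791) was 11.61, 11.69 and 11.75 in tolerant cells, 12.71 on syngeneic 1 and 8.62, at background, on syngeneic 2. Its difference of 1.02 (SE 1.12, adjusted p = 0.915) was -1.02 without syngeneic 2 and 3.06 without syngeneic 1 (adjusted p = 0.067). Tap2 (probe 21808428) was 15.70, 16.23 and 15.22 in tolerant and 16.27 and 15.88 in syngeneic cells, with groups that overlapped (difference -0.36, SE 0.47, adjusted p = 0.927). Psmb9, whose promoter window adjoins that of Tap1, was 16.34 on syngeneic 2 and 16.33 on tolerant 1. The signal of Psmb9 minus that of Tap1 was 4.60 to 5.17 on tolerant arrays, 4.14 on syngeneic 1 and 7.72 on syngeneic 2, so the probes of this gene pair changed unequally on that array. Erap1 was 11.15 (at background), 11.85 and 12.53 in tolerant and 12.50 and 12.22 in syngeneic cells, with the tolerant arrays spread more widely than for the other genes of peptide loading that were above background throughout (difference -0.51, SE 0.52, adjusted p = 0.910). No probe is named for Tapbp (tapasin).

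**Figure D4:**
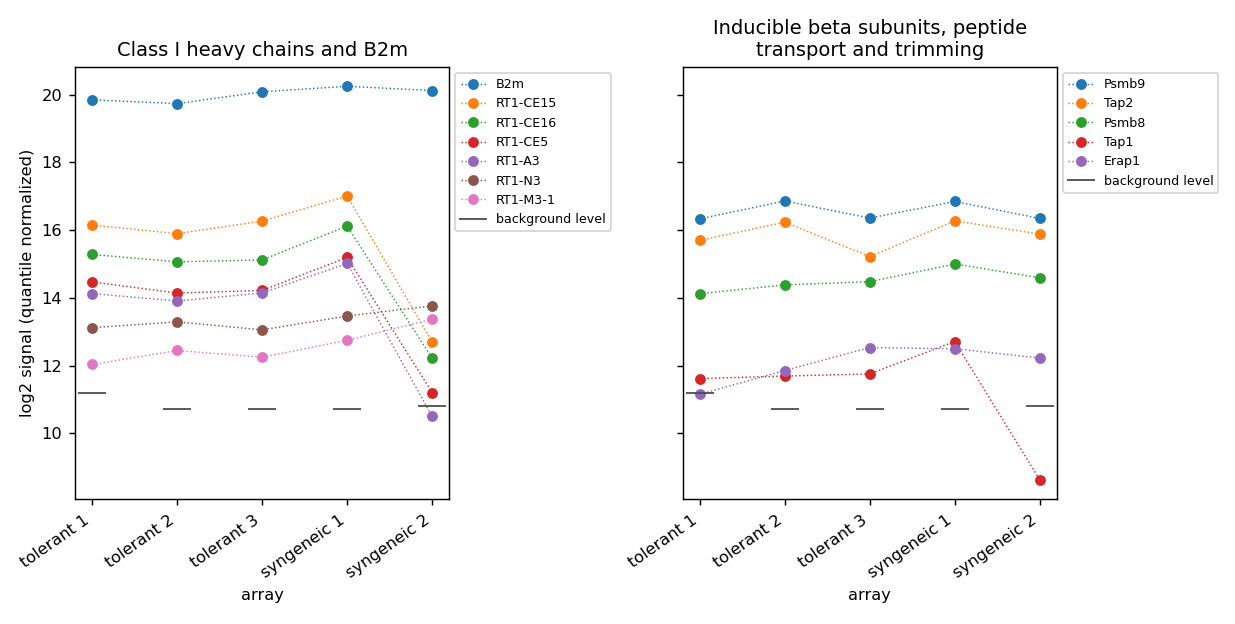
Log2 signal on each array for the tested class I heavy chains and B2m (left) and for the inducible beta subunits, Tap2, Tap1 and Erap1 (right), with each array's background level as a dash and dotted lines that only join values of a gene. RT1-A3, RT1-CE5, RT1-CE15, RT1-CE16 and Tap1 drop on syngeneic 2, where B2m, Psmb8, Psmb9 and Tap2 keep signals within 0.27 of their tolerant means.

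The drop on syngeneic 2 was counted at a threshold chosen after the values were seen. Of the 38 tested members 5 (13.2%), the 4 heavy chains and Tap1, lay at least 2 log2 units below the lowest of the other arrays, against 3.28% of all tested probes. Among probes above background on the other 4 arrays they were 5 of 34 members (14.7%), against 7.57% of 5058 tested probes. The drop was also met in 5 of 16 tested genes of class I loading and peptide supply, 2 of 10 of the ubiquitin list and 1 of 11 of the interferon list. No member lay at least 2 log2 units above the highest of the other arrays there, against 1.11% of all tested probes. At 1 log2 unit below, the count was 6 (15.8%), with Psmd9 added, against 8.38% of all tested probes. A further 4 probes list several class I genes each and are no members. On 3 of them syngeneic 2 was again the lowest array and syngeneic 1 the highest, at 9.49 against 16.24, 14.41 against 17.03 and 10.22 against 14.89. Of these syngeneic 2 values, 9.49 and 10.22 were at background. The other probe was at background throughout. The probe at 9.49 differed by 5.62 without syngeneic 1 and by -1.14 without syngeneic 2, each with a lone syngeneic array. The 5.62 is measured against background and is only a bound. Chromosome 20, which holds the RT1 complex, carries the promoters of 11 members. Of the others there, Psmb8, Psmb9, Tap2, RT1-N3 and RT1-M3-1 did not meet the threshold. RT1-T18 was untested and at background on every array, so it could not meet it. On the same array the summed signal of erythroid markers was 21.16 (15.59 on syngeneic 1), of neutrophil markers 21.18 (19.75), of class II genes 18.84 (20.07) and of monocyte and macrophage markers 19.47 (19.82). The monocyte sum is led by Lyz2, while 3 of the 7 monocyte and macrophage markers met the threshold of 2 log2 units (4 at 1 unit), as did 1 of 9 class II genes (3 at 1 unit). The part of these markers in the drop was not tested.

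**Figure D5:**
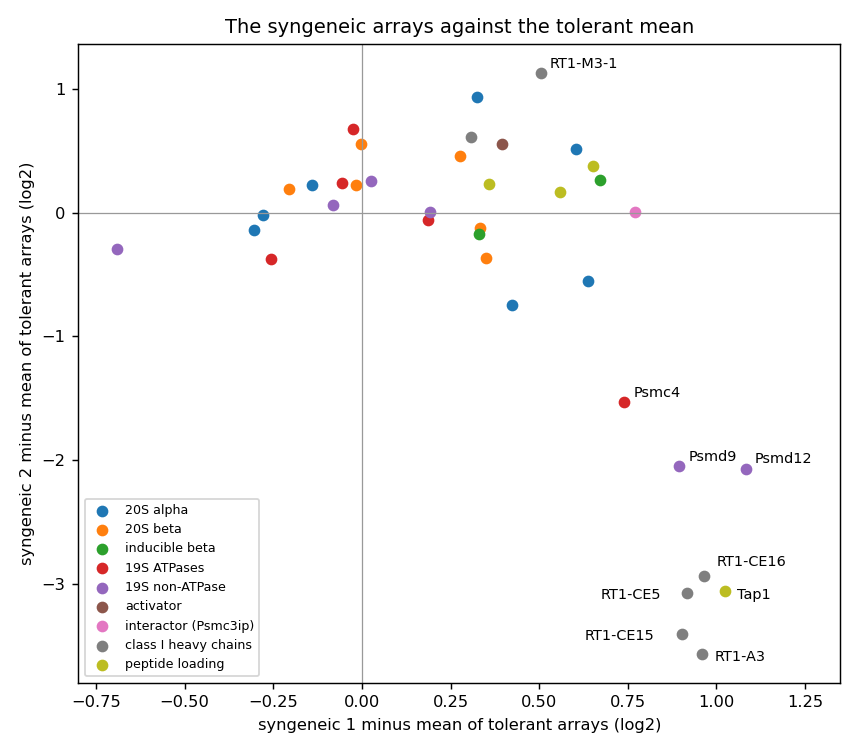
Log2 signal on syngeneic 1 (horizontal axis) and syngeneic 2 (vertical axis), each minus the mean of the tolerant arrays, for the 38 tested members coloured by role. Most members lie within 1 log2 unit of 0 on both axes, and RT1-A3, RT1-CE5, RT1-CE15, RT1-CE16 and Tap1 lie together at about 0.90 to 1.02 on the horizontal and -2.94 to -3.56 on the vertical axis.

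Other genes of the same pathway were also not called between the groups in the fit of all 5 arrays. Of 16 tested genes of class I loading and peptide supply (chaperones, cytosolic peptidases and the translocation channel) 0 passed in either direction (0 also at an unadjusted p under 0.05), 4 were lower and 12 higher, and the median was 0.36 (-0.36 without syngeneic 2). The cytosolic chaperone Hsp90ab1 was 14.33, 13.96 and 13.59 in tolerant and 15.20 and 14.70 in syngeneic cells, the lowest p of that list (difference -0.99, SE 0.44, adjusted p = 0.907). Hsp90b1, its relative in the endoplasmic reticulum, was 13.05 to 13.61 in tolerant cells and 13.81 on syngeneic 1 but 8.77, at background, on syngeneic 2 (difference 2.10, SE 1.37, adjusted p = 0.907). Its difference was -0.42 without syngeneic 2 and 4.62 without syngeneic 1, each with a lone syngeneic array. Of 10 tested genes of ubiquitin supply and proteasome-associated factors 0 passed (0 unadjusted), and the median over 4 lower and 6 higher genes was 0.30. Among them Adrm1, a ubiquitin receptor of the cap, was 11.60, 11.07 and 11.85 against 11.27 and 8.68, at background on syngeneic 2 (difference 1.53, SE 0.80, adjusted p = 0.907), with 0.23 without syngeneic 2 and 2.83 without syngeneic 1. Ube2n, an enzyme that conjugates ubiquitin, was 12.40, 12.33 and 13.48 against 12.20 and 12.20, higher on every tolerant array (difference 0.54, SE 0.50, adjusted p = 0.907).

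Of 11 tested genes of interferon gamma signalling and class I regulation 0 passed (1 unadjusted), 4 were lower and 7 higher, and the median was 0.08 (-0.42 without syngeneic 2 and 0.58 without syngeneic 1). Socs1, a feedback inhibitor of cytokine signalling, differed by 1.40 (SE 0.58, adjusted p = 0.907). Its values of 10.93, 9.57 and 9.40 in tolerant and 8.66 and 8.48 in syngeneic cells were at background on every array, so no change in it is measured. Mx2, an interferon-induced gene, was 9.09, 11.20 and 11.56 in tolerant and 10.40 and 8.72 in syngeneic cells, above background on 2 tolerant arrays only (difference 1.06, SE 0.90, adjusted p = 0.907).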

How the data were processed

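RNA of sorted blood cells was measured with a 1-colour chemiluminescent array from Applied Biosystems, per the labels' protocols. The deposited raw table holds a linear intensity per probe and array, not normalized between arrays, with median signals of 563 to 798. In the deposited series matrix the log2 values are already quantile normalized by the authors, and they differed from quantile-normalised raw intensities by at most 0.000102. For background subtraction, software and detection calls, nothing is given in the sources used here.

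After quantile normalization of the intensities, signals under the 10th percentile (log2 8.29) were raised to it before log2 was taken. A probe lacking 1 signal was dropped. Probes with a mean at or above the median (9.40), 13428 in all, were tested with limma 3.58.1 in R 4.3.3 and Benjamini-Hochberg adjustment. Every adjusted p comes from that fit, or from the same fit without an array where so stated. The fit of all arrays was also run on simulated data, with shifts larger than any member difference. Fits without an array, or with 1 outlying array, were not simulated. Samples were grouped by title. The members were picked on the series matrix values. Symbols come from the platform annotation: 6104 probes have 1 symbol, 70 several, and 20682 are not listed and unnamed here. The background was to be set on probes named Olr, but only 18 carry that symbol. Instead, 464 probes named Or, the current symbol, were used. Set on Olr, the level was 10.50 on tolerant 1 and 11.19 to 11.25 elsewhere, with 32 members above it on all arrays. Calls near background turn with this choice, among them Erap1 (11.15) and Psmc4 (11.06) on tolerant 1. No batch label was given. The number of arrays limits the precision.

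The members, lists and tests were chosen with earlier results of these data known. Named are the catalytic and inducible subunits, the loading genes, every tested heavy chain and, per role, the 2 lowest p and the brightest probe. In the pathway lists the 2 lowest p are named, and for other cell types the brightest marker. Genes named beyond this were chosen after their values were seen. Alternatives covered normalization, background correction, floor, filter, variance model, replicate block, probe choice and leaving out each array.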

Additional observations from a re-analysis of the deposited data

How the results depend on the processing

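No member was called in any setting or with any array left out. Over the whole table the call count was 53 with median scaling, 81 without normalization, 14 with a mean-variance trend, and 0 with normexp background correction, without the signal filter or with a replicate block. Scaling decided the sign of several medians. With median scaling and with no normalization the median of all tested probes was -0.16 and -0.37 (0.0038 as reported), and the member median -0.39 and -0.60 (-0.22 relative to all tested probes in both), with 29 and 30 members lower. The role medians were then, in that order, -0.36 and -0.57 (alpha ring), -0.41 and -0.62 (constitutive beta), -0.63 and -0.84 (inducible), -0.34 and -0.55 (ATPases), -0.052 and -0.26 (non-ATPases), and -0.66 and -0.87 (Psme3). The ubiquitin list gave -0.0095 and -0.22, peptide loading -0.56 and -0.77, the interferon list -0.13 and -0.34, the loading list 0.22 and 0.0088, and heavy chains 0.84 and 0.63. Of 286 values of the 26 named members under these settings 4 turned direction: Psmc5 (-0.0034 with median scaling, -0.21 without normalization), Psmd6 (-0.026 without normalization) and Psmb9 (0.00086 with the replicate block). That block, in which tolerant array 3 has no partner, also moved the non-ATPase median to 0.0038. The labels state no pairing, and the deviations of same-numbered arrays correlated at -0.056, so the block was not used. Leaving out each array in turn gave 0 (without any of the tolerant arrays or syngeneic 2) to 76 (without syngeneic 1) called probes. Medians then ranged from -0.34 to -0.00074 (members), -0.32 to 0.090 (alpha ring), -0.12 to 0.063 (ATPases), -0.11 to 0.26 (non-ATPases), -0.91 to 3.01 (heavy chains), -0.60 to -0.20 (peptide loading), -0.36 to 0.74 (loading list, with 0 to 1 calls), 0.032 to 0.31 (ubiquitin list) and -0.42 to 0.58 (interferon list). Of the 38 tested members 21 had opposite signs without syngeneic 1 and without syngeneic 2. Those of them that the naming rule fixed ranged from -0.33 to 0.17 (Psmb9), -0.23 to 0.018 (Psmb6), -0.22 to 0.14 (Psma6), -0.56 to 0.0020 (Psmb4), -0.67 to 0.026 (Psmc2), -0.24 to 0.057 (Psmc3), -0.90 to 2.05 (Psmd9), -1.02 to 3.06 (Tap1), -0.96 to 3.56 (RT1-A3), -0.90 to 3.41 (RT1-CE15), -0.96 to 2.94 (RT1-CE16) and -0.92 to 3.07 (RT1-CE5). The cause of these shifts was not tested. The 10 members at background on 1 array or more have only bounds there, and 3 arrays against 2 leave wide intervals.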
